A study of Homo sapiens with 4 samples.

Results

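MDM2, PPM1D, CCNG1, ZMAT3 and TRIAP1 are p53 target genes, grouped here as genes of p53 feedback and survival. Their p53 peaks are described in 4 ChIP-seq libraries. The genes were chosen by name. Each peak whose summit lay in the body of a member or within 25 kb of it was taken, with gene bodies from GENCODE release 44 on GRCh37, and so was the response element (RE) that the study listed for each of them. This gave 5 of 20175 protein-coding genes, 5 of 1356 listed REs and 16 of the 6849 peaks in all lists. Binding was measured with an anti-p53 antibody in the lung cancer cell line H1299, which is human and lacks endogenous p53. All cells stably expressed the Tet repressor and carried a lentiviral p53 transgene that tetracycline (Tet) induces, encoding either WT p53 or K120R p53, in which Lys120 is replaced by arginine. Each form was measured in untreated cells (WT_NT and K120R_NT in the plots) and after 24 h of Tet treatment (WT_Tet and K120R_Tet), with 1 library per condition. With no replicates the conditions could not be tested against each other, and all differences between libraries are given as descriptions. The p53 is expressed from a transgene, and how much of each form a library reflects is not part of the peak lists. The labels and the methods give the Tet dose per different volumes.

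In outline, p53 is kept low in unstressed cells by genes that it activates itself. MDM2 is the ubiquitin ligase that marks p53 for degradation and covers its activation domain. PPM1D (Wip1) is a phosphatase that removes activating phosphates from p53 and from the kinases of the DNA damage response. CCNG1 (cyclin G1) recruits protein phosphatase 2A to MDM2. ZMAT3 (Wig-1, PAG608) is a zinc-finger protein that binds RNA and regulates the stability and splicing of transcripts. TRIAP1 (p53CSV) is a small mitochondrial protein that takes part in lipid transfer between the mitochondrial membranes and counters apoptosis. p53 binds these genes as a tetramer at REs of 20 bp built from 2 half-sites of 10 bp, each with a central core of 4 bp between purine and pyrimidine triplets.

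The REs are shown first because the members differ in them. Each sequence is that of the GRCh37 reference, and the 4 capitals mark positions 3, 8, 13 and 18, where the study compares G/C with A/T bps. For MDM2 and CCNG1 the closest 20-bp match to the consensus RE within 100 bp of the summit of the WT Tet-treated peak was not the listed RE, so both are given.
MDM2, listed RE, minus strand of chr12:69202741-69202760: agAcaagTcaggActtaAct
MDM2, closest match, plus strand of chr12:69202703-69202722: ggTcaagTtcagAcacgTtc
PPM1D, listed RE and closest match, plus strand of chr17:58677612-58677631: ggAcaagTccagAcatcGcg
CCNG1, listed RE, plus strand of chr5:162864759-162864778: gaGcaggCccggGgaggGtg
CCNG1, closest match, plus strand of chr5:162864932-162864951: gcAcaagCccagGctagTcc
ZMAT3, listed RE and closest match, plus strand of chr3:178787976-178787995: agGcatgTctggActtgTtt
TRIAP1, listed RE and closest match, minus strand of chr12:120884140-120884159: agGcatgCacggAcatgAag

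Against the consensus, the ZMAT3 RE had 0 mismatches, the listed MDM2 and PPM1D REs had 3 each, the TRIAP1 RE had 4 and the listed CCNG1 RE had 5. The median over the 1308 listed REs of 20 bp with a WT Tet-treated peak was 2. Within the cores, mismatches numbered 0 in ZMAT3 and TRIAP1, 1 in MDM2 and PPM1D and 3 in the listed CCNG1 RE. The closest matches of MDM2 and CCNG1 had 2 and 1 mismatches in all. At the 4 marked positions, G/C bps numbered 0 in MDM2, in both of its REs, 1 in PPM1D and ZMAT3, 2 in TRIAP1 and 4 in the listed CCNG1 RE, and it was 2 in the closest match of CCNG1. In windows of 100 bp to each side of all WT Tet-treated summits, leaving out 2 with gaps in the reference, the closest match had at most 2 mismatches in 53.2% of 4324 windows and at most 4 in 92.0%. In windows of the same length 3000 bp to either side, these shares were 0.602% and 24.3% of 8637. A match with 4 mismatches, as in TRIAP1, was therefore present in many windows away from summits, whereas one with 0 to 2, as in ZMAT3, CCNG1 and MDM2, was rare there.

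The REs lie in different parts of the genes. Both MDM2 REs lie in the first intron of all 6 annotated transcripts that span them, 756 and 794 bp after the gene start and 18 bp apart from each other, and 25 of the 36 MDM2 transcripts start within 1 kb downstream, the nearest 31.5 bp from the centre of the listed RE. The PPM1D RE is exonic in all 5 transcripts that span it, in the 5′ UTR, 67.5 bp after the gene start. The listed CCNG1 RE is exonic in 5 of 7 spanning transcripts, whereas its closest match to the consensus is intronic in all 7, 366.5 bp after the gene start. The ZMAT3 RE is intronic in all 4 transcripts, 2017.5 bp after the start. The TRIAP1 RE is in the coding sequence of the 1 protein-coding transcript, 37.5 bp after the gene start. Among all WT Tet-treated peaks, 11.8% had the start of a protein-coding gene within 5 kb of the summit, and the main peaks of the 5 members all did. The member peaks were chosen by their place in or near a protein-coding gene, which favours nearness to a start. Nothing is therefore drawn from this difference. Other starts were close to some of these summits. GATC, the mitochondrial amidotransferase subunit that is transcribed away from TRIAP1, starts 103 bp from the TRIAP1 summit, so that this peak belongs to both genes by position. A protein-coding gene without a symbol, which starts 8.14 kb away on the strand opposite to TRIAP1, also spans this summit. A long non-coding RNA starts 580 bp from the CCNG1 summit and another starts 4073 bp from that of MDM2. The pseudogenes SZRD1P1 and RPL31P52 start 3467 bp from the MDM2 summit and 4462 bp from the TRIAP1 summit.

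After Tet treatment, WT p53 and K120R p53 each had a peak in the window of all 5 genes. Among all protein-coding genes, 19.1% had a WT Tet-treated peak in the same window (exact Clopper-Pearson 95% interval 18.6 to 19.6%, counting error only) and 9.46% had a K120R Tet-treated peak (9.06 to 9.87%). In untreated cells, WT p53 had a peak at MDM2, CCNG1, ZMAT3 and TRIAP1 but none at PPM1D, against 2.59% of all genes (2.38 to 2.82%). K120R p53 had no peak at any of the 5 genes in untreated cells, where 0.0347% of all genes had one. The members are known p53 targets, and a peak list holds only regions above the q-value cutoff of the authors, so that a gene without a peak is one where nothing passed that cutoff in libraries of 33059650 to 34857204 tags.

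At the listed REs themselves the counts were 5 of 5 for WT p53 after Tet treatment, 4 of 5 for K120R p53 after Tet treatment, 4 of 5 for WT p53 in untreated cells and 0 of 5 for K120R p53 in untreated cells. The shares over all 1356 listed REs were 98.4%, 40.0%, 23.5% and 0.0737%, in the same order, and the first of them follows from the listing, as the study listed REs from its own WT binding sites. The RE without a K120R peak was that of CCNG1, whose K120R peak began 114 bp after its end. MDM2, ZMAT3 and TRIAP1 shared the pattern of a peak in every library but that of untreated K120R cells, which 207 of the listed REs showed (15.3%). PPM1D had a peak of both forms after Tet treatment and none before it, as 333 listed REs did (24.6%). At the listed CCNG1 RE only WT p53 had peaks, with and without Tet, a pattern of 110 listed REs (8.11%). Of the 7 WT Tet-treated peaks in the windows of the members, 5 overlapped a K120R Tet-treated peak and 4 overlapped a peak of untreated WT cells. Over the whole list, 25.2% of WT Tet-treated peaks overlapped a K120R Tet-treated peak and 9.27% overlapped an untreated WT peak. Seen from the shorter lists, 56.8% of K120R Tet-treated peaks and 84.8% of untreated WT peaks overlapped a WT Tet-treated peak.

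The values below are the fold enrichment over the local background that MACS estimated from the input, the pileup of fragments at the summit and the rank in the list of the same library. MACS extended tags to 170 bp in the WT Tet-treated library, 68 bp in the K120R Tet-treated library and 64 bp in both untreated libraries. Pileups, fold enrichments and peak lengths are therefore not on 1 scale across lists. The median peak length was 303 bp in the WT Tet-treated list and 204 bp in the K120R Tet-treated list. The lengths of 64 and 68 bp are shorter than the tags of 75 bp. What the extension does to the places of summits and to the calling of peaks was not tested. The lists also differ in length, and a percentile depends on how many weaker peaks passed the cutoff in that library. Percentiles in different lists are therefore given as positions within each list, not as a change at a site. The medians of fold enrichment were 7.29 in the 488 peaks of untreated WT cells, 7.64 in the 4326 peaks of WT Tet-treated cells and 6.71 in the 2023 peaks of K120R Tet-treated cells.

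MDM2 had the largest K120R peak among the members. Its main peak had a fold enrichment of 13.9 and a pileup of 28.0 in untreated WT cells, and it ranked 72 of 488 by fold enrichment. In WT Tet-treated cells the fold enrichment was 36.8 and the pileup 294, at rank 124 of 4326 by fold enrichment but rank 6 by pileup. In K120R Tet-treated cells the fold enrichment was 27.4 and the pileup 81.3, at ranks 7 and 10 of 2023. By fold enrichment MDM2 stood nearer to the top of the K120R list than of the WT list, at the 99.7th percentile against the 97.1st, but by pileup the order turned, at 99.5 against 99.9. As the lists differ in length, neither order shows whether binding differed between the forms. In the untreated WT list it stood at the 85.2nd percentile by fold enrichment. The summits fell between the 2 REs or on one of them. That of untreated WT cells lay inside the upstream RE, 4.5 bp from its centre. In WT Tet-treated cells the summit lay between the REs, 13.5 bp from the centre of the upstream one and 24.5 bp from that of the listed one. The K120R summit lay 12.5 bp from the centre of the listed RE and 25.5 bp from that of the upstream one. These summits span 21 bp in all, and the offset of 12 bp between the Tet-treated libraries was exceeded at 71.4% of the 535 listed REs of 20 bp with both peaks. With fragments of this length, binding at the 2 REs cannot be told apart.

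PPM1D had the smallest WT peak of the members and no peak in untreated cells. Its peak at the RE had a fold enrichment of 8.03 and a pileup of 55.2 in WT Tet-treated cells, at rank 2018 of 4326 (53.4th percentile). In K120R Tet-treated cells the fold enrichment was 9.05 and the pileup 26.2, at rank 482 of 2023 (76.1st percentile). By fold enrichment the WT peak was thus near the middle of its list, and the K120R peak was in the upper part of its own. By pileup both were in the upper part, at the 76.2nd (WT) and 85.7th (K120R) percentiles. The summits differed in place. The WT summit lay inside the RE, 3.5 bp from its centre, whereas the K120R summit lay 109.5 bp downstream, 113 bp from that of WT p53. An offset larger than this was found at 25 of the 535 REs with both peaks (4.67%), and the median offset was 26.0 bp. The K120R peak was 462 bp long and the WT peak 354 bp, and both covered the RE.

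CCNG1 had the smallest K120R peak of the members. Fold enrichment was 10.2 in untreated WT cells (pileup 19, rank 137 of 488), 14.5 in WT Tet-treated cells (pileup 129.8, rank 849 of 4326) and 8.09 in K120R Tet-treated cells (pileup 15.9, rank 661 of 2023). By fold enrichment it fell in the upper part of each list, at percentiles of 71.9, 80.4 and 67.2. By pileup these were 56.4, 94.9 and 50.6, so that the K120R peak was near the middle of its list. All 3 summits lay over 100 bp from the centre of the listed RE. The other match was sought only within 100 bp of the WT Tet-treated summit. Its nearness to the summits thus follows in part from the search, and nothing is drawn from it. In untreated and Tet-treated WT cells they were 131.5 and 143.5 bp from the centre of the listed RE and 41.5 and 29.5 bp from that of the closest match. The K120R peak was 120 bp long, against 528 bp for WT p53 after Tet treatment, and its summit lay inside the closest match, 4.5 bp from the centre. Of the 1308 listed REs, 16 (1.22%) had their centre over 100 bp from the WT summit, and the CCNG1 RE was one of them. For 12 of the 16, a match with fewer mismatches than the listed RE lay within 100 bp of the summit. The same share among the other listed REs was not counted. A match with at most 4 mismatches was also present in 24.3% of windows away from summits, so nothing is drawn from the 12. The count of member REs with a K120R peak, 4 of 5, rests on which CCNG1 sequence is taken. It is 5 of 5 with the closest match, a choice made after seeing the data.

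ZMAT3, listed here with cell cycle arrest genes, had the largest fold enrichment of the members in both WT libraries. It was 26.4 in untreated cells (pileup 46.0, rank 21 of 488) and 53.5 after Tet treatment (pileup 162, rank 36 of 4326), the 95.7th and 99.2nd percentiles. With K120R p53 the fold enrichment was 12.5 (pileup 22.4, rank 200 of 2023), the 90.1st percentile. The percentiles of ZMAT3 and CCNG1 were lower in the K120R list than in either WT list, whereas those of MDM2 and TRIAP1 were lowest in untreated WT cells. The 3 summits of ZMAT3 lay within 11.5 bp of the centre of the RE, the closest placement among the members, and the WT and K120R summits after Tet treatment were 9 bp apart.

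TRIAP1 had a fold enrichment of 8.75 in untreated WT cells (pileup 19, rank 185 of 488), 31.0 in WT Tet-treated cells (pileup 154, rank 191 of 4326) and 14.1 in K120R Tet-treated cells (pileup 29.9, rank 128 of 2023). It was near the upper end of both Tet-treated lists, at the 95.6th percentile for WT p53 and the 93.7th for K120R p53, and lower in the untreated list, at the 62.1st. After Tet treatment both summits lay inside the RE, 5.5 bp from its centre on either side. In untreated cells the WT summit lay 86.5 bp away, on the side of GATC and 49 bp before the annotated start of TRIAP1. The offset of 92 bp between the summits of the WT libraries was exceeded at 9.21% of the 315 listed REs of 20 bp with both peaks.

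**Figure D1:**
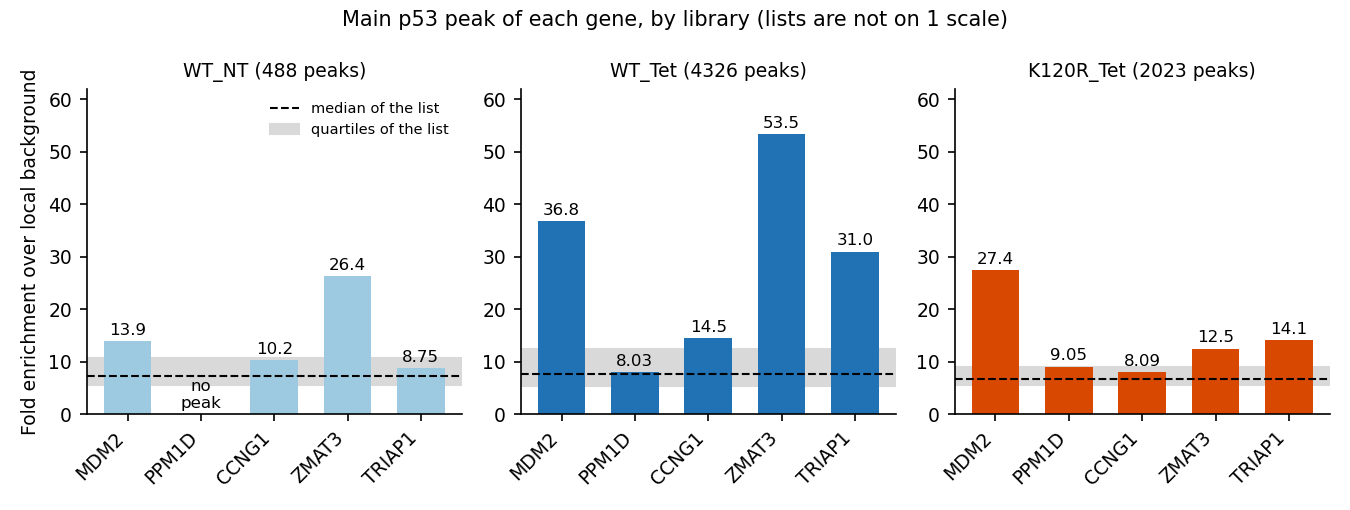
Fold enrichment over local background of the main p53 peak of each gene (bars, with the value) in the libraries of untreated WT cells (WT_NT), Tet-treated WT cells (WT_Tet) and Tet-treated K120R cells (K120R_Tet), 1 library each; the dashed line and the grey band give the median and quartiles of all peaks of that list. ZMAT3 is highest in both WT lists (26.4 and 53.5), MDM2 is highest in the K120R list (27.4), and PPM1D has no peak in untreated WT cells.

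**Figure D2:**
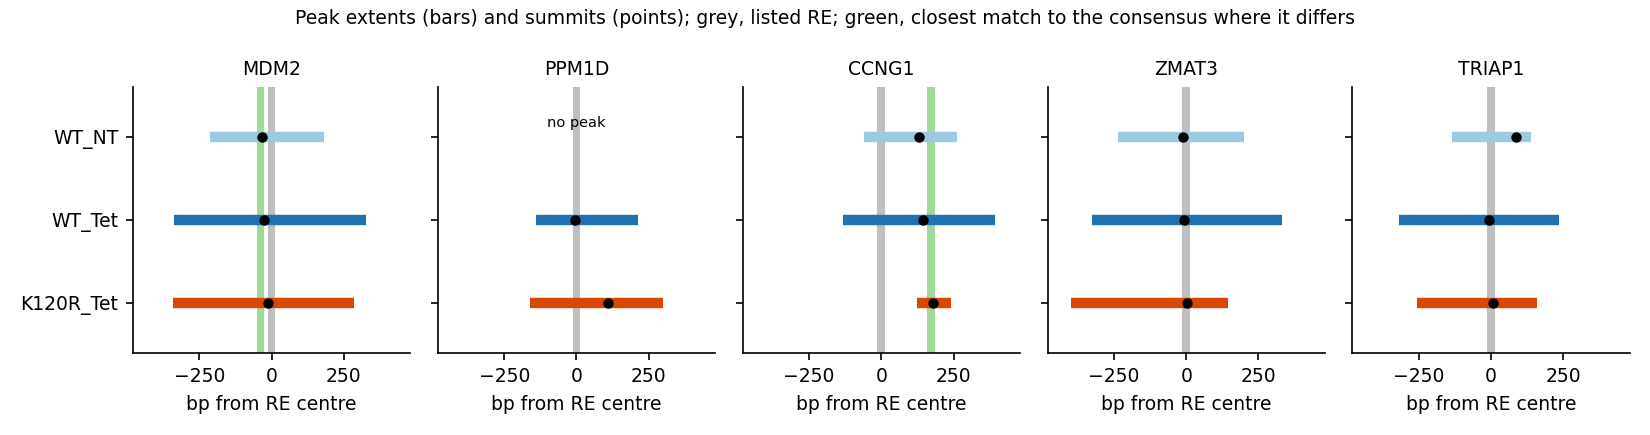
Extent (bar) and summit (point) of the main peak of each gene in 3 libraries, in bp from the centre of the listed RE along the reference plus strand. The grey strip is the listed RE and the green strip is the closest match to the consensus where it is another sequence. That match was sought only within 100 bp of the WT_Tet summit. The CCNG1 summits sit near the green strip, and the K120R summit of PPM1D lies 109.5 bp from the RE. The other summits of Tet-treated cells lie within 24.5 bp of the centre of the listed RE.

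The order of the members differed between the lists. By fold enrichment it ran ZMAT3, MDM2, TRIAP1, CCNG1 and PPM1D for WT p53 after Tet treatment, from 53.5 to 8.03, and MDM2, TRIAP1, ZMAT3, PPM1D and CCNG1 for K120R p53, from 27.4 to 8.09. In untreated WT cells it ran ZMAT3, MDM2, CCNG1 and TRIAP1, from 26.4 to 8.75. The largest value was 6.66 times the smallest among the WT peaks after Tet treatment and 3.39 times among the K120R peaks, but by pileup these ratios were close to each other, at 5.32 and 5.12. With 1 library each, no spread between experiments is known, and it was not tested whether neighbours in these orders differ. Among the listed REs that had a peak in the same library, 117 of 1334 had a larger WT value after Tet treatment than MDM2, and 6 of 543 had a larger K120R value. For ZMAT3 these counts were 34 of 1334 and 127 of 543, and for TRIAP1 they were 174 and 90. In the same comparison, 1099 of the 1334 WT values and 243 of the 543 K120R values were larger than those of PPM1D, and 624 and 303 were larger than those of CCNG1. Read as percentiles among listed REs, PPM1D stood at 17.5 in the WT list and at 54.9 in the K120R list, and ZMAT3 at 97.4 and 76.4. The reference sets differ, as the first holds 1334 REs and the second 543. These percentiles thus do not measure a change at the RE itself.

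**Figure D3:**
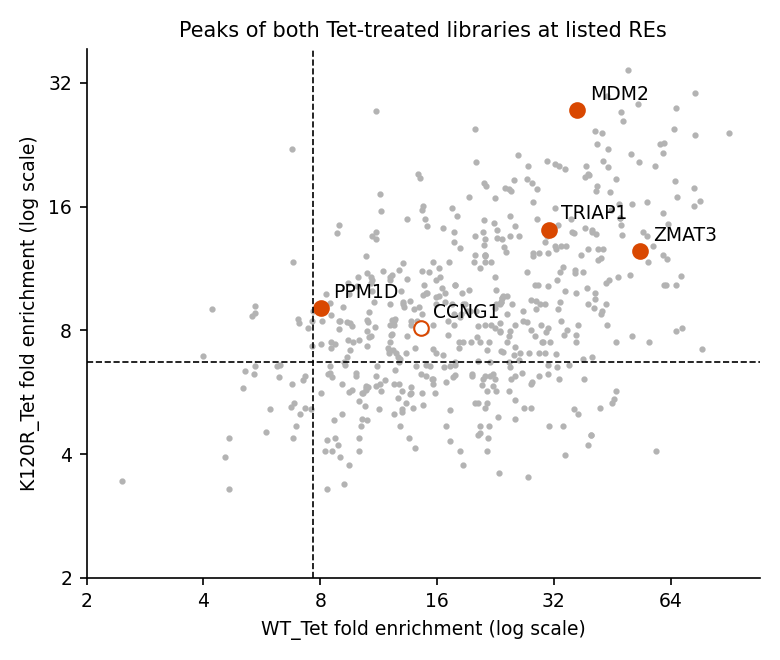
Fold enrichment in Tet-treated WT cells (x axis) and Tet-treated K120R cells (y axis), both on log scales, for listed REs with a peak in both libraries (grey) and for the main peaks of the 5 genes (orange; CCNG1 is open because its K120R peak does not overlap the listed RE). Dashed lines are the medians of all peaks of each list (7.64 and 6.71); all 5 genes lie above both, PPM1D just above the WT median and MDM2 among the highest K120R values.

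The orders by fold enrichment, which is taken over the local background, and by pileup were not the same. From the deposited values, the background that MACS used at the summit was 7.0 fragments at MDM2, 6.0 at PPM1D, 8.0 at CCNG1, 4.0 at TRIAP1 and 2.05 at ZMAT3 in the WT Tet-treated library, where the median over all peaks was 3.00 (quartiles 2.05 and 4.42). The value of ZMAT3 was that of the genome-wide background of the library, as was the lower quartile, and MDM2, PPM1D and CCNG1 lay above the upper quartile. By pileup, the order for WT p53 after Tet treatment was MDM2 (294), ZMAT3 (162), TRIAP1 (154), CCNG1 (129.8) and PPM1D (55.2), so that only MDM2 and ZMAT3 changed places, and CCNG1 and PPM1D rose to the 94.9th and 76.2nd percentiles of the WT list. For K120R p53 only ZMAT3 and PPM1D changed places, and the pileups ran MDM2 (81.3), TRIAP1 (29.9), PPM1D (26.2), ZMAT3 (22.4) and CCNG1 (15.9). In the K120R Tet-treated library the background was 2.00 at MDM2 and PPM1D, 1.20 at TRIAP1, 1.09 at CCNG1 and 0.877 at ZMAT3, against a median of 1.16. In untreated WT cells it was between 0.784 at ZMAT3 and 1.29 at TRIAP1, against a median of 0.977. What raised the background at MDM2, PPM1D and CCNG1 in the WT Tet-treated library was not tested.

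The members were set against the classes of listed REs by their G/C bps at the 4 marked positions. Only listed REs of 20 bp with a WT Tet-treated peak were counted, and a K120R peak was called by overlap. The study classed its whole list with its own calls of K120R binding. Its numbers of REs per class and its shares therefore differ from those given here. Of the 155 with 0 such bps, the class of MDM2, 78.1% also had a K120R peak after Tet treatment (exact Clopper-Pearson 95% interval 70.7 to 84.3%). The share was 56.3% of 341 REs with 1 (50.9 to 61.6%), the class of PPM1D and ZMAT3, and 34.5% of 467 REs with 2 (30.2 to 39.0%), the class of TRIAP1. With 4 such bps, as in the listed CCNG1 RE, it was 14.3% of 63 (6.75 to 25.4%). The closest match of CCNG1, sought within 100 bp of the WT summit, has 2 such bps and a K120R peak. With that sequence CCNG1 would fall in the class of TRIAP1. MDM2 with the fewest G/C bps had the largest K120R fold enrichment of the members, but TRIAP1 with 2 had a larger one than ZMAT3 and PPM1D with 1. The classes concern the presence of a K120R peak, not its size. Nothing is therefore drawn from this order, which comes from 1 library. The WT medians of these classes were close to each other, between 11.4 and 14.3.

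**Figure D4:**
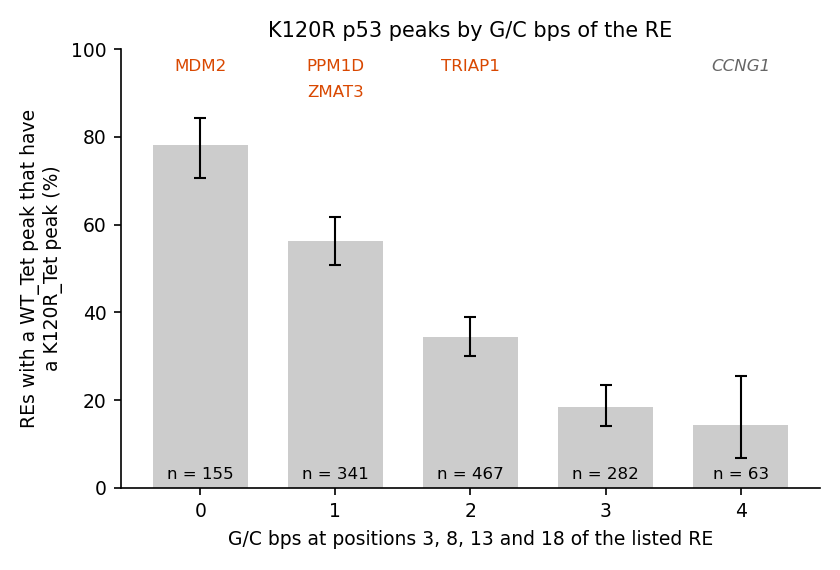
Percent of listed 20-bp REs with a WT_Tet peak that also overlap a K120R_Tet peak (y axis), by how many of positions 3, 8, 13 and 18 are G/C (x axis); error bars are exact 95% binomial intervals (counting error only) and n is the number of REs. Names show the class of each listed member RE, in orange where it has a K120R peak and in grey italics where it has none (CCNG1). The closest match of CCNG1, in place of its listed RE, has 2 G/C bps and a K120R peak. The share falls from 78.1% with 0 to 14.3% with 4.

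MDM2 and PPM1D each had a further WT Tet-treated peak in the window, and neither overlapped a K120R peak or an untreated WT peak. The first lay 20.4 kb before the MDM2 start, in an intron of SLC35E3, with a fold enrichment of 13.6, a pileup of 57.2 and rank 943 of 4326. The second lay 20.4 kb beyond the end of PPM1D, in an intron of BCAS3 and 9.21 kb after its start, with a fold enrichment of 13.1, a pileup of 51.3 and rank 982. It was larger by fold enrichment than the peak at the PPM1D RE but smaller by pileup. The closest matches beneath them are shown because both had 3 mismatches and 2 G/C bps at the marked positions, with their centres 15.5 bp (MDM2) and 11.5 bp (PPM1D) from the summit. Both matches are on the plus strand. The MDM2 upstream peak also holds an RE that the study listed for LOC100130075, with 5 mismatches and 3 G/C bps at the marked positions and its centre 14.5 bp from the summit, which is given too. The PPM1D downstream peak holds no listed RE.
MDM2, upstream peak, closest match, chr12:69181500-69181519: ggGcaagTccagGcaaaAgc
MDM2, upstream peak, listed RE, minus strand of chr12:69181530-69181549: agGcaggCccggActctGgc
PPM1D, downstream peak, closest match, chr17:58764028-58764047: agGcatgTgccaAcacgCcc
Just outside the window, the nearest WT Tet-treated peak lay 26.6 kb before MDM2 (fold enrichment 8.86) and 55.5 kb before PPM1D (fold enrichment 21.3). For CCNG1, ZMAT3 and TRIAP1 the nearest WT Tet-treated peak outside the window was 674, 898 and 776 kb away, so that each of these genes had 1 isolated WT peak. The nearest K120R Tet-treated peaks outside the window lay between 70.2 kb (PPM1D) and 3144 kb (CCNG1) away.

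The listed REs most like each member were found by the Euclidean distance in log2 fold enrichment over the libraries in which the member had a peak. For MDM2 these were REs listed for DTWD1 and LINC00474, at distances of 0.44 and 0.50 over 3 libraries. TRIAP1 was closest to REs of CCRL1 and TBX18 (0.17 and 0.20), CCNG1 to REs of MROH2B and SNORA28 (0.31 and 0.39), and ZMAT3 to REs of MAP4K4 and MAP2K6 (0.34 and 0.39), all among 205 candidates. The K120R value used for CCNG1 is that of a peak that does not overlap its listed RE, whereas all 205 candidates overlap a K120R peak. Candidates with peaks of WT p53 only, the pattern at the listed CCNG1 RE, were not compared. PPM1D, compared over the 2 Tet-treated libraries and 332 candidates, was closest to REs of LOC100130557 and MIR4785 (0.07 and 0.09). The 2 REs closest to MDM2 were farther away than those of any other member.

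Among 10 genes of p53 feedback, 6 had a WT Tet-treated peak, 5 a K120R Tet-treated peak, 3 an untreated WT peak and 0 an untreated K120R peak. Without MDM2, PPM1D and CCNG1 the first 3 counts were 3, 2 and 1 of 7. For this list and those below, the shares over all protein-coding genes were 19.1%, 9.46%, 2.59% and 0.0347%, in the same order of libraries. MDM4, the partner of MDM2 that also covers the activation domain of p53, had fold enrichments of 23.2 (WT) and 7.91 (K120R) at a peak 8.7 kb after its start. DYRK3, a dual-specificity kinase, had 14.6 and 5.17. TP53INP1 had a WT peak in both WT libraries (5.66 untreated, 11.8 after Tet treatment) and none with K120R p53. The ubiquitin ligase genes RCHY1, COP1 and SIAH1 and TRIML2 had no peak in any library. MDM2 had the largest fold enrichment of this list in both Tet-treated libraries.

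Of 10 genes that counter apoptosis, 7 had a WT Tet-treated peak, 3 a K120R Tet-treated peak and 2 an untreated WT peak. Without TRIAP1 these counts were 6, 2 and 1 of 9. TRIAP1 had the largest fold enrichment of this list in each of these 3 libraries. BCL2L1, which encodes BCL-XL, came next in the WT libraries, at 23.4 with Tet and 4.69 without it, whereas its K120R value of 9.36 was below that of TNFAIP8. TNFAIP8 had 15.9 at a WT peak 55.2 kb after its start, where K120R p53 had 10.6, and a second K120R peak with a fold enrichment of 12.5 lay 796 bp after the start, where no WT peak was called. TRAF4, TM7SF3, TNFRSF10D and MKNK2 had WT peaks only, and TNFRSF10C, COQ8A and BIRC5 had none.

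All 12 genes of cell cycle arrest had a WT Tet-treated peak, 9 had a K120R Tet-treated peak and 8 had an untreated WT peak. Without ZMAT3 and CCNG1 these counts were 10, 7 and 6 of 10. The largest WT values after Tet treatment were those of PLK2 (61.4), ZMAT3 (53.5) and CDKN1A (49.7), and the corresponding K120R values were 10.3, 12.5 and 34.4. CDKN1A, which encodes the cyclin-dependent kinase inhibitor p21, had the largest fold enrichment of the whole K120R list. The other K120R values were 19.1 at GADD45A, 14.2 at SESN1, 11.2 at E2F7, 9.19 at IER5, 8.09 at CCNG1 and 5.17 at BTG3, against WT values of 39.5, 16.6, 14.6, 5.43, 14.5 and 24.95. For 3 genes of the lists, all of cell cycle arrest, the study also listed an RE outside the window. The values there were 49.9 (untreated WT), 56.0 (WT Tet-treated) and 11.7 (K120R Tet-treated) for IER5, 29.5 (WT Tet-treated) and 9.28 (K120R Tet-treated) for GADD45A and 6.37 (WT Tet-treated) for BTG3, with no peak in the other libraries. BTG2, PLK3 and SFN had no K120R peak. BAX, the pro-apoptotic comparator, had a fold enrichment of 9.20 in untreated and 27.5 in Tet-treated WT cells and no K120R peak. Its WT value after Tet treatment was thus below those of TRIAP1, MDM2 and ZMAT3 and above those of CCNG1 and PPM1D, which did have K120R peaks.

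**Figure D5:**
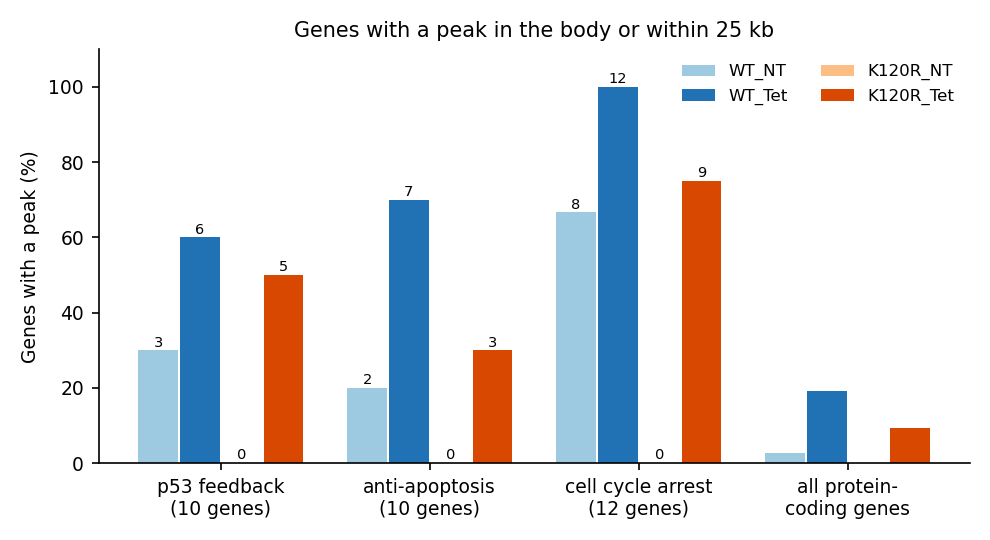
Percent of genes with a p53 peak summit in the gene body or within 25 kb (y axis) for the 3 gene lists and for all protein-coding genes, by library (colours; the number above a bar is the count of genes). All 12 cell cycle arrest genes have a WT_Tet peak, no gene of the lists has a K120R_NT peak, and the background over all protein-coding genes is 19.1% for WT_Tet and 9.46% for K120R_Tet.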

How the data were processed

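Per the labels and the study's methods, the authors used BWA-MEM to align 75-bp reads to GRCh37 (hg19). Per the file headers, each ChIP library was then run with its input through MACS 2.1.1.20160309, keeping 1 tag per position and peaks below a q-value of 0.05. ChIP libraries held 33059650 to 34857204 tags and inputs 32480936 to 41132992. The deposited pileup is a signal, namely fragments at the summit once the authors had scaled the larger of ChIP and input down. Fold enrichment, as deposited, is a ratio, pileup over local background with 1 added to both. The authors' p-values and q-values were deposited as -log10. The 3 files of each library held the same peaks in all 488, 4326, 12 and 2023 cases.

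Lists were compared by overlap of at least 1 bp, and values by rank within a list. The main peak of a gene was the WT Tet-treated peak over its listed RE, and in other libraries the peak that overlapped it. Local background was (pileup + 1) / fold enrichment - 1. Positions and sequences of REs, but no values, were taken from the study's source data, and gene symbols are as given there. Named genes are the 5 members, CDKN1A, BAX, genes with a start within 5 kb of a member's summit, the 2 REs most like each member, and from each list the genes with a K120R Tet-treated peak and the 3 with the largest WT fold enrichment. Other genes of the lists were named after their counts were seen. SLC35E3, BCAS3 and LOC100130075 were named for the further peaks after these were seen. 1 gene of the planned feedback list of 11 is not reported here, and the counts of that list are of the other 10. The members and lists were chosen with earlier results of these data known. The RE search and overlap counts were tested on simulated data. Alternatives were other windows, peak thresholds, overlap rules, rankings and RE definitions. Scripts ran in Python 3.11.15 (pandas 2.3.3, numpy 2.4.6, pysam 0.24.0, scipy 1.17.1, matplotlib 3.10.9). Expression of the genes was not analysed here.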

Additional observations from a re-analysis of the deposited data

How the results depend on the processing

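No count of members changed by over 1.5 times, and WT p53 kept a peak at all 5 genes after Tet treatment under each alternative. At a -log10 q of at least 10, CCNG1 lost its K120R peak (4 of 5 genes). Within the gene body alone, TRIAP1 lost its untreated WT peak (3 of 5). With summits within 100 bp of the RE centre, the REs with a peak were 4 of 5 for WT p53 and 3 of 5 for K120R p53 after Tet treatment and 3 of 5 for untreated WT p53. No paired analysis was possible because each condition had 1 library.

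The ranking moved most values. By pileup, percentiles in the WT Tet-treated list were 99.9 (MDM2), 76.2 (PPM1D), 94.9 (CCNG1), 96.9 (ZMAT3) and 96.5 (TRIAP1). In the K120R Tet-treated list they were 85.7 (PPM1D), 50.6 (CCNG1), 78.6 (ZMAT3) and 90.2 (TRIAP1), and in the untreated WT list 72.5 (MDM2), 56.4 (CCNG1 and TRIAP1) and 85.9 (ZMAT3). By -log10 q they were 99.6 (MDM2), 68.5 (PPM1D), 91.9 (CCNG1), 98.0 (ZMAT3) and 96.7 (TRIAP1) for WT p53 after Tet treatment, 82.9 (PPM1D), 61.5 (CCNG1), 87.0 (ZMAT3) and 92.1 (TRIAP1) for K120R p53, and 66.2 (CCNG1) for untreated WT p53.

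With the closest match in place of the listed RE, mismatches were 2 (MDM2) and 1 (CCNG1) and G/C bps were 2 (CCNG1). A spacer of 0 to 13 bp gave 2 (MDM2), 2 (PPM1D, with a spacer of 4 bp) and 1 (CCNG1). Without the added 1, an alternative chosen after seeing the data, the local background was 2.01 (MDM2), 1.85 (CCNG1), 1.75 (ZMAT3) and 2.17 (TRIAP1) in untreated WT cells and 1.96 (CCNG1), 1.80 (ZMAT3) and 2.13 (TRIAP1) in K120R Tet-treated cells. The causes of these shifts were not tested. Of 58 alternatives for the percents over all genes, REs or peaks, 32 left their 95% interval. The shares of all genes with a peak moved with the window. With 100 kb, 5 kb and the gene body alone they were 39.6%, 12.1% and 9.84% for WT p53 after Tet treatment, 20.9%, 6.03% and 4.84% for K120R p53 after Tet treatment, 6.21%, 1.497% and 1.13% for untreated WT p53 and 0.0892%, 0.0149% and 0.0149% for untreated K120R p53. At a -log10 q of at least 10, 3.51% (K120R Tet-treated) and 1.19% (untreated WT) of genes had a peak, as did 22.6% and 11.9% of listed REs, and 14.96% of WT Tet-treated peaks overlapped a K120R Tet-treated peak.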
